A study of Mus musculus with 8 samples.

Results

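Transcripts of 32 genes of the Hippo pathway, 24 pathway components and 8 genes known to respond to its effector YAP, were followed in mouse bladder after partial outlet obstruction. The members were taken by gene symbol from a list of pathway genes chosen with earlier results of these data known. All 32 were found among the 38926 symbols of the count files. Cyr61 and Ctgf are listed there under those older names of Ccn1 and Ccn2. All 32 passed the filter on low counts that left 16370 genes for testing. The libraries are polyA RNA of bladder from mice with the nerve-sparing obstruction abbreviated NeMO (4 libraries) and from Sham-operated mice (4 libraries). The sources used here do not give strain, genotype, sex, age or the time after the operation, nor whether every library came from its own animal. The p-values therefore measure only how far these samples spread, which may be technical. In whole tissue, fewer cells of a type and less RNA per cell cannot be told apart.

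The Hippo pathway restrains growth through a kinase cascade. The MST kinases (Stk3 and Stk4), with the scaffold Sav1, activate the LATS kinases and their MOB1 partners, and LATS phosphorylates the coactivators YAP (Yap1) and TAZ (Wwtr1), which then stay in the cytoplasm or are degraded. Unphosphorylated YAP and TAZ enter the nucleus and bind TEAD factors, which carry them to genes such as Ctgf, Cyr61 and Ankrd1. Stretch, stiff matrix and actin tension favour nuclear YAP, so the output of the pathway is set mainly on the proteins, which counts of RNA do not measure.

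Library totals were 29451800 to 36375313 counts for NeMO and 27212499 to 33459048 counts for Sham. A batch mark in the submitted file names puts 2 NeMO and 3 Sham libraries in batch 1, and 2 NeMO libraries and Sham replicate 4 in batch 2, and batch was a term in the test. Levels are given as CPM, counts per 1e6 on TMM-scaled library sizes. The markers of bladder tissue were high. The sum over 5 smooth muscle markers was 23801 to 44038 CPM in NeMO and 29448 to 37460 CPM in Sham, and that over 6 urothelium markers 4176 to 6223 CPM in NeMO and 5156 to 6864 CPM in Sham. No marker passed the adjusted threshold in edgeR. At an unadjusted p under 0.05, 4 of 6 urothelium markers, 3 of 5 adipocyte markers and 1 marker each of fibroblasts, leukocytes and mesothelium were lower in NeMO, against 9.14% of all genes. The median transcript of the urothelium list has 1657.5 nucleotides, and 15.1% of all genes of 1381 to 2042 nucleotides were lower. That of the adipocyte list has 2817, and 8.1% of all genes of 2642 to 3211 nucleotides were lower. All 6 urothelium markers had a negative log2 fold change (median −0.42), as did all 5 adipocyte markers (median −1.18, summed 324 to 1048 CPM in NeMO and 819 to 2373 in Sham). The lists for fibroblasts (4451 to 9222 CPM in NeMO, 4995 to 6430 in Sham), endothelium (202 to 356 and 225 to 276), leukocytes (90.1 to 195 and 136 to 227), mesothelium (242 to 382 and 327 to 578) and striated muscle (708 to 1252 and 769 to 1043) overlapped between NeMO and Sham. The mesothelium sum was mostly Upk3b (mean 282 CPM in NeMO and 378 in Sham), a uroplakin gene. That of striated muscle was mostly Acta1 (mean 908 CPM in NeMO and 735 in Sham). Each of these sums thus rests largely on a single gene. Cd79a of the leukocyte list and Myh4 of the striated muscle list were at 0 in at least 1 library. The part of these markers in the results that follow was not tested.

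Pathway genes were mostly somewhat higher in NeMO, none past the threshold. The median log2 fold change (NeMO over Sham) was 0.18 for the 24 components and 0.33 for the 8 targets, against −0.01 for all genes tested. Of the components 18 had a positive value and 6 a negative one, and all 8 targets had a positive one, against 48.3% of all genes with a positive value. In edgeR's quasi-likelihood test with Benjamini-Hochberg adjustment 0 of 32 members passed an adjusted p of 0.05, against 0.0733% of all genes tested. At an unadjusted p under 0.05, 8 components and 2 targets were higher, together 31.3% of the members, against 9.38% of all genes, and 0 members were lower, against 9.14%. The members were chosen with earlier results of these data known, so these shares are not an independent test of the list. The 2 longest of 8 bins of transcript length held 7 and 10 members. In these bins 16.6% and 30.8% of all genes were higher and 4.6% and 2.97% lower. With offsets for transcript length and GC content in the fit, the component median was 0.09 and 4 components and 3 targets were higher at an unadjusted p under 0.05, against 7.28% of all genes. The counts also moved with single libraries. Without NeMO replicate 2 there were 6 such targets, against 9.48% of all genes, and without NeMO replicate 3 there were 5 such components and 1 target, against 7.34%. Without NeMO replicate 1, Ptpn14, Vgll3 and Crim1 passed the adjusted threshold (1.94% of all genes were then called higher). In that fit Tead3 was lower at an unadjusted p under 0.05, as were 10.9% of all genes. For 4 members (Ptpn14, Tead1, Crim1 and Myof) every NeMO library lay above every Sham library, against 4.39% of all genes, and for 0 members every NeMO library lay below, against 3.81%. DESeq2's Wald test gave 5 members with an adjusted p under 0.05 and a higher level in NeMO (Ptpn14, Crim1, Vgll3, Wwc2 and Lats2), where 3.6% of all genes were called higher and 2.72% lower. In the batches alone the component median was 0.18 (batch 1) and 0.22 (batch 2), and the target median 0.38 (batch 1) and 0.17 (batch 2).

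**Figure D1:**
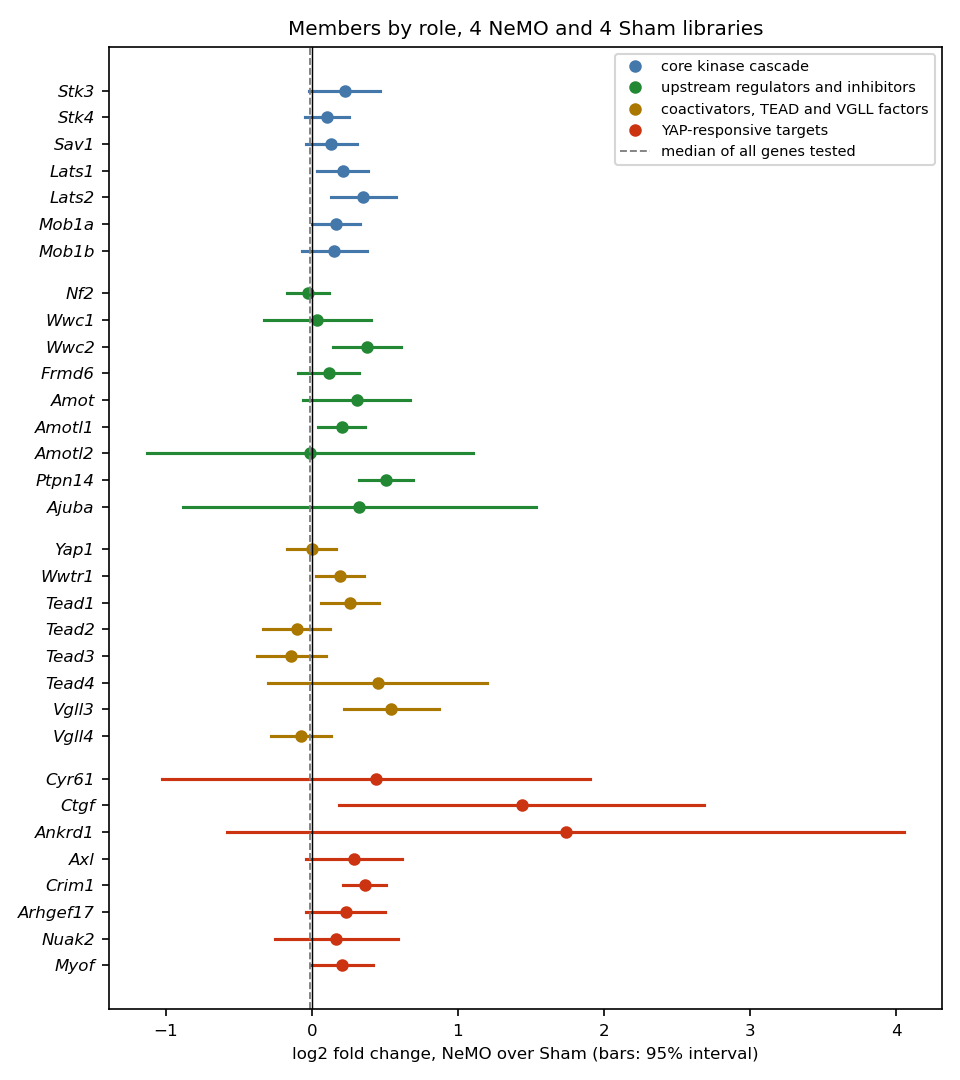
The log2 fold change of NeMO over Sham (x axis) of each of the 32 members (y axis), grouped by role, with the 95% interval of edgeR's fit as a bar and the median of all genes tested (−0.01) as a dashed line. Intervals are narrow for most components and wide for Ankrd1 (−0.58 to 4.06), Cyr61, Ctgf, Amotl2 and Ajuba; those of 8 components and 2 targets exclude 0.

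TEAD factors bind the hexamer GGAATG, read on either strand as GGAATG or CATTCC, and the promoters of the members were searched for it. RefSeq's promoter table (GRCm38.p6, 250 bases before to 50 after a start) held 31 promoters of 26 members; Stk3, Tead1, Tead4, Ctgf, Arhgef17 and Nuak2 had no entry. The hexamer stood in 18 of the 31 (58.1%), 14 of 26 component promoters and 4 of 5 target promoters, against 14.7% of all 32851 promoters of this length. By gene it stood in 16 of 26 members, 12 of 21 components and 4 of 5 targets. Some promoters of the same gene overlap, and the 2 of Wwtr1 hold the same match. The AP-1 motif TGANTCA stood in 0 of the 31, against 7.81% of all promoters, and the CArG box of serum response factor in 0 of the 31, against 1.63%. A match is a stretch of letters and not evidence of binding, and members were in part taken from lists of known YAP targets. The promoters of the 2 members with the smallest p, Ptpn14 and Crim1, follow, with those of Cyr61, Amotl2 and Ajuba. The latter 3 were lowest in the same libraries and were chosen after their values were seen. Sequences run 5′ to 3′ on the gene's strand, with the hexamer in capitals:
Ptpn14 (chr1:189728018-189728317, plus strand): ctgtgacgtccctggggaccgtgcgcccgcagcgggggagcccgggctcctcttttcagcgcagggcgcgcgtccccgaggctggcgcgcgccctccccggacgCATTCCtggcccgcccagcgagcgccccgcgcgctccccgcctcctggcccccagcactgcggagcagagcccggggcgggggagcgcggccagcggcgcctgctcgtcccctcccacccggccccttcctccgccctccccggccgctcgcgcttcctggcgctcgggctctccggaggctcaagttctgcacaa
Crim1 (chr17:78199998-78200297, plus strand): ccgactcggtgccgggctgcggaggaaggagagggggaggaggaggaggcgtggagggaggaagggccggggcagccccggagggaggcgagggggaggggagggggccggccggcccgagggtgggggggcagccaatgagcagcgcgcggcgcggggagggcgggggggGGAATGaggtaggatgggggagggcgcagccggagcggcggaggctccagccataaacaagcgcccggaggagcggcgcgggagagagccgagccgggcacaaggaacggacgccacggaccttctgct
Cyr61 (chr3:145649936-145650235, minus strand): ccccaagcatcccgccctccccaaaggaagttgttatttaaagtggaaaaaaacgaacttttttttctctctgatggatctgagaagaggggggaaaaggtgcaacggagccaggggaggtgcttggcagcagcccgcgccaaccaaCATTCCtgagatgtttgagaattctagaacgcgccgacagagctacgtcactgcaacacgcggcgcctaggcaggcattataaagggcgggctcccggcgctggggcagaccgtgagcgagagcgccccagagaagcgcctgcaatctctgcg
Amotl2 (chr9:102717554-102717853, plus strand): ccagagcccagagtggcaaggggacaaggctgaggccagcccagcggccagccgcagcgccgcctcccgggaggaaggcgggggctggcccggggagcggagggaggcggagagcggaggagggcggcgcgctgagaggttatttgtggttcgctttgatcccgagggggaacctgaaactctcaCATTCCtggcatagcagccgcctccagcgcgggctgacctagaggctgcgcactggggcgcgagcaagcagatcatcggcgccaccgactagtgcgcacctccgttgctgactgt
Ajuba (chr14:54577612-54577911, minus strand): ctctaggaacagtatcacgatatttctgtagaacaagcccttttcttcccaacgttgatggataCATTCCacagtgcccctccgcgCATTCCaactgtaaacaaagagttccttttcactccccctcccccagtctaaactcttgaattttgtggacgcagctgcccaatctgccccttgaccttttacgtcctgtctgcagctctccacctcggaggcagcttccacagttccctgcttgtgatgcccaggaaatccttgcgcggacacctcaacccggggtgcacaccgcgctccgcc

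Counted from the first base of the RefSeq transcript as 1, with no position 0, the hexamer begins at −146 in Ptpn14, at −79 in Crim1, at −103 in Cyr61, at −65 in Amotl2 and at −186 and −164 in Ajuba. Wwc2 held 3 matches, at −203, −94 and −79.

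All 7 genes of the core kinase cascade had positive values, from 0.10 for Stk4 to 0.35 for Lats2, with a median of 0.17. Of these, Stk4 stood at −0.019 in batch 2 alone and Mob1b at −0.017 with length and GC offsets. Lats2, a kinase that phosphorylates YAP and is itself a known YAP target, measured 76.0, 62.1, 84.6 and 84.2 CPM in NeMO replicates 1 to 4 and 64.5, 61.3, 60.9 and 58.5 CPM in Sham replicates 1 to 4. NeMO replicate 2 lay within the Sham range and the other 3 NeMO libraries above it. The log2 fold change was 0.35 (SE 0.10, edgeR adjusted p = 0.132), with 0.37 in batch 1 and 0.33 in batch 2. Its paralog Lats1 measured 75.5, 79.4, 84.9 and 68.8 CPM in NeMO and 70.3, 68.4, 72.9 and 62.0 CPM in Sham. Its groups overlapped through NeMO replicate 4 (0.21, SE 0.08, edgeR adjusted p = 0.200), with 0.18 in batch 1, 0.26 in batch 2 and 0.065 with length and GC offsets. The MST kinases stood at 0.23 (Stk3, SE 0.11) and 0.10 (Stk4, SE 0.07). The scaffold Sav1 stood at 0.13 (SE 0.08) and the LATS cofactors at 0.17 (Mob1a, SE 0.07) and 0.15 (Mob1b, SE 0.10). Overlapping genes may change 2 of these values in either direction. Of the exon bases of Sav1 25.4% are shared with the opposite-strand gene Atl1, and of those of Lats2 42.4% with the same-strand gene model Gm49361.

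Among the 9 upstream regulators and YAP-binding inhibitors, Ptpn14 differed most between the groups relative to its error. This non-receptor tyrosine phosphatase binds YAP and holds it in the cytoplasm, and its gene is in a published YAP/TAZ target signature. It lies on chromosome 1 of GRCm38 (189728268 to 189876695, plus strand). Ptpn14 measured 139, 134, 140 and 145 CPM in NeMO and 104, 113, 94.4 and 89.2 CPM in Sham. The lowest NeMO library lay above the highest Sham library. The fitted difference was 1.42-fold (log2 fold change 0.51, SE 0.08, 95% interval 0.32 to 0.69, edgeR adjusted p = 0.0668), with 0.43 in batch 1 and 0.65 in batch 2. It passed in DESeq2 (adjusted p = 2.9e-05), in edgeR with no filter on low counts (adjusted p = 0.0172, where 0.464% of genes were called higher) and in edgeR without NeMO replicate 1 (adjusted p = 0.0259). Ptpn14 did not pass in edgeR without NeMO replicate 3 (adjusted p = 0.139), without NeMO replicate 4 (0.164), with no batch term (0.0693) or in batch 1 alone (0.352).

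Wwc2, a paralog of KIBRA (Wwc1) and like it an activator of LATS, measured 53.7, 47.7, 57.0 and 57.2 CPM in NeMO and 44.1, 50.8, 40.5 and 36.3 CPM in Sham. The groups overlapped through NeMO replicate 2 and Sham replicate 2 (0.38, SE 0.10, edgeR adjusted p = 0.125), with 0.30 in batch 1, 0.54 in batch 2 and 0.25 with length and GC offsets. Wwc1 itself stood at 0.04 (SE 0.16), with −0.20 in batch 1 and 0.48 in batch 2. The angiomotins tether YAP to junctions and actin. Amotl1, the most abundant of them per kilobase, measured 201, 173, 209 and 197 CPM in NeMO and 181, 170, 176 and 165 CPM in Sham, overlapping through NeMO replicate 2 (0.20, SE 0.07, edgeR adjusted p = 0.183), with 0.22 in batch 1, 0.18 in batch 2 and 0.087 with length and GC offsets. Amot measured 11.7 to 12.8 CPM in NeMO and 7.98 to 12.7 CPM in Sham (0.31, SE 0.16, and 0.19 with the offsets). The merlin gene Nf2, which recruits LATS to the membrane, was among the steadiest members (−0.03, SE 0.06, 95% interval −0.17 to 0.12), and Frmd6, a FERM protein of the pathway, stood at 0.11 (SE 0.09), and at 0.03 without NeMO replicate 1.

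Yap1 itself was close to equal in NeMO and Sham. It measured 292, 269, 261 and 258 CPM in NeMO and 273, 259, 276 and 277 CPM in Sham (log2 fold change −0.00, SE 0.07, 95% interval −0.17 to 0.17, edgeR adjusted p = 0.995). With length and GC offsets the log2 fold change of Yap1 was −0.093. Wwtr1, which encodes TAZ, measured 182, 153, 177 and 157 CPM in NeMO and 154, 153, 139 and 149 CPM in Sham, with NeMO replicate 2 inside the Sham range (0.19, SE 0.07, edgeR adjusted p = 0.211). The value was 0.27 in batch 1, 0.06 in batch 2 and 0.12 with length and GC offsets. Within libraries the log2 ratio of Yap1 to Wwtr1 was 0.69 ± 0.11 in NeMO and 0.87 ± 0.10 in Sham (SD, n = 4 each, difference −0.17, two-sided exact permutation p = 0.0571, adjusted over 8 paralog ratios 0.152).

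The TEAD genes, which encode the DNA-binding partners of YAP and TAZ, did not all lie on the same side of 0. Tead1, on chromosome 7 (112679318 to 112906807, plus strand), measured 292, 300.4, 259 and 281 CPM in NeMO and 221, 259, 243 and 223 CPM in Sham. Its groups were separated only narrowly, the lowest NeMO library at 258.9 and the highest Sham library at 258.8 CPM (0.26, SE 0.09, edgeR adjusted p = 0.173, 0.19 in batch 1 and 0.39 in batch 2). Tead3 stood at −0.14 (SE 0.11) and Tead2 at −0.10 (SE 0.10). The log2 ratio of Tead1 to the sum of the other TEAD genes was 1.02, 1.12, 1.13 and 0.97 in NeMO and 0.58, 0.91, 0.67 and 0.59 in Sham, with no overlap. The difference was 0.37 (two-sided exact permutation p = 0.0286, the smallest that 4 against 4 libraries allows, adjusted over 8 ratios 0.114), with 0.35 in batch 1 and 0.46 in batch 2. These permutations exchange libraries across the unbalanced batches and take no account of batch. Tead1 has the longest annotated transcript of the family. With offsets for length and GC in the fit its log2 fold change was 0.10, and that of Tead3 −0.09. Tead4 was close to the floor of the set, at 1.32 to 3.26 CPM in NeMO and 1.39 to 1.97 in Sham (0.45, SE 0.34, and 0.018 without NeMO replicate 3).

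VGLL cofactors compete with YAP and TAZ for TEAD. Vgll3 measured 27.6, 35.7, 39.7 and 42.5 CPM in NeMO and 27.9, 25.3, 22.5 and 22.8 CPM in Sham. NeMO replicate 1 lay just under the highest Sham library and the other 3 NeMO libraries above all Sham libraries (log2 fold change 0.54, SE 0.14, edgeR adjusted p = 0.122), with 0.42 in batch 1 and 0.79 in batch 2. Without NeMO replicate 1 it passed at 0.72 (edgeR adjusted p = 0.0196), and without NeMO replicate 3 it stood at 0.43 (edgeR adjusted p = 0.308). Vgll4, a YAP antagonist in this family, stood at −0.07 (SE 0.09), and the log2 ratio of Vgll3 to Vgll4 was −0.72, −0.19, −0.20 and −0.20 in NeMO against −0.76, −0.86, −0.87 and −1.22 in Sham. These did not overlap either (difference 0.60, two-sided exact permutation p = 0.0286, adjusted over 8 ratios 0.114), with 0.37 in batch 1 and 1.02 in batch 2. The annotated transcript of Vgll3 (7009 nucleotides) is longer than that of Vgll4 (2198), and with length and GC offsets their log2 fold changes were 0.40 and 0.052. The other 5 ratios (Stk3 to Stk4, Lats2 to Lats1, Mob1b to Mob1a, Wwc2 to Wwc1 and Amotl2 to Amotl1) differed by −0.10 to 0.21 with overlapping groups and exact permutation p from 0.343 to 0.771.

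**Figure D2:**
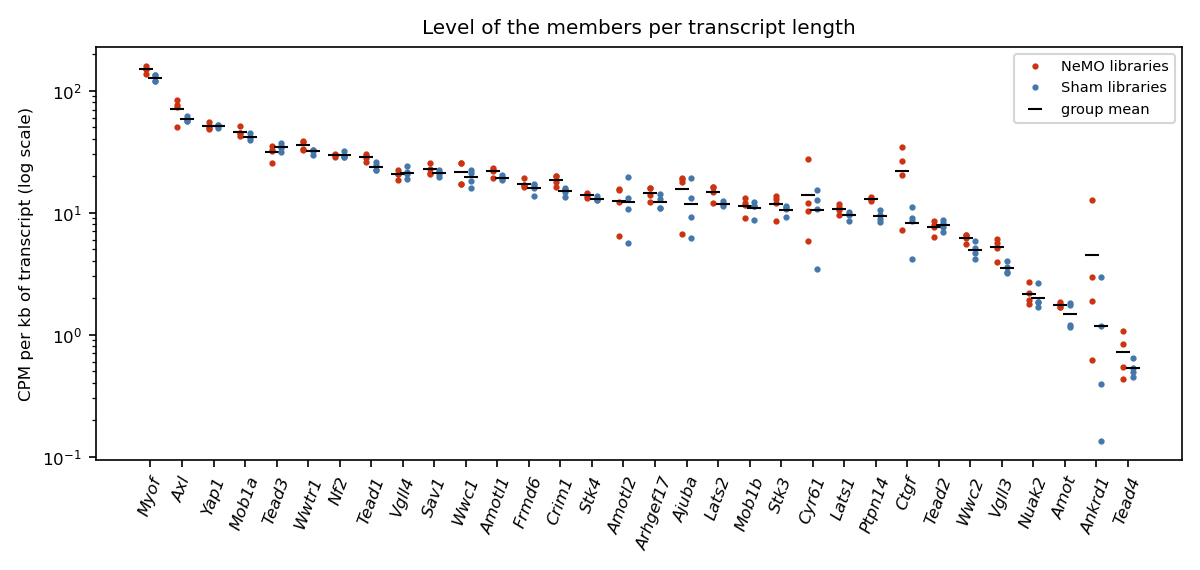
Level of the 32 members in CPM per kilobase of the longest annotated transcript (y axis, log scale), ordered by the Sham mean (x axis), with NeMO libraries in red to the left of Sham libraries in blue and dashes for group means. Myof (150 in NeMO and 127 in Sham) and Axl (70.8 and 58.3) lead, Yap1 (51.1 and 51.3) follows, and Ankrd1 and Tead4 are lowest in Sham; the 8 values of Ankrd1, Ctgf and Cyr61 spread widest.

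Per kilobase of transcript, Yap1 (51.1 CPM per kilobase in NeMO and 51.3 in Sham) stood above Wwtr1 (35.6 and 31.7). Tead3 (31.4 in NeMO and 34.4 in Sham) stood beside Tead1 (28.4 and 23.7), and Tead2 (7.59 and 7.90) and Tead4 (0.72 and 0.53) well below both. Mob1a (45.9 and 41.8) exceeded Mob1b (11.4 and 10.9). Lats2 (14.8 and 11.8) and Lats1 (10.7 and 9.49) were close, as were Stk4 (13.9 and 13.0) and Stk3 (11.7 and 10.6). These orders rest on the annotated length, which need not be that of the transcript made in bladder.

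Of the 8 targets, those with the largest fold changes were also the most variable. Ctgf, a secreted matricellular protein and the classic YAP target, lies on chromosome 10 (24595442 to 24598683, plus strand) and measured 50.9, 17.98, 85.3 and 65.5 CPM in NeMO and 21.1, 22.3, 10.4 and 27.8 CPM in Sham. NeMO replicates 1, 3 and 4 lay above all Sham libraries and NeMO replicate 2 within them (log2 fold change 1.44, SE 0.52, 95% interval 0.19 to 2.69, edgeR adjusted p = 0.225). The value was 1.93 in batch 1 and 0.60 in batch 2, and 23.2% of its exon bases are shared with the opposite-strand gene Gm15270. Ankrd1, an ankyrin repeat protein of muscle induced by load in the heart, measured 3.84, 1.26, 6.0 and 25.4 CPM in NeMO and 0.80, 2.39, 0.27 and 5.96 CPM in Sham. A single library, NeMO replicate 4, stood far above the others, and without it the log2 fold change was 1.07 in place of 1.74 (SE 0.97, edgeR adjusted p = 0.392). The value was 2.11 in batch 1 and 1.18 in batch 2. Cyr61, a matricellular relative of Ctgf, measured 11.7, 24.3, 55.1 and 20.7 CPM in NeMO and 30.8, 25.7, 7.0 and 21.8 CPM in Sham, with NeMO replicate 3 alone above the Sham range (0.44, SE 0.61, edgeR adjusted p = 0.746, and −0.42 without NeMO replicate 3), with 0.67 in batch 1 and 0.05 in batch 2.

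The steadier targets differed by less. Crim1, a transmembrane protein that binds BMPs, lies on chromosome 17 (78200248 to 78376592, plus strand) and measured 121, 97.3, 120.1 and 106 CPM in NeMO and 94.3, 96.2, 88.1 and 80.4 CPM in Sham. Its groups did not overlap, NeMO replicate 2 lying just above Sham replicate 2 (1.29-fold, log2 fold change 0.36, SE 0.07, 95% interval 0.22 to 0.51, edgeR adjusted p = 0.0728), with 0.37 in batch 1 and 0.35 in batch 2. Crim1 passed in DESeq2 (adjusted p = 2.7e-04), with no filter on low counts (edgeR adjusted p = 0.0396) and without NeMO replicate 1 (edgeR adjusted p = 0.0433). It did not pass in edgeR without NeMO replicate 3 (adjusted p = 0.182), without NeMO replicate 4 (0.169), with no batch term (0.225) or in batch 1 alone (0.342). The membrane-repair protein gene Myof measured 978, 1065, 1071 and 1134 CPM in NeMO and 845, 958, 858 and 954 CPM in Sham (0.21, SE 0.10, edgeR adjusted p = 0.285, and 0.094 with length and GC offsets). The receptor tyrosine kinase gene Axl measured 215 to 358 CPM in NeMO, with NeMO replicate 2 below and the other 3 above the Sham range of 241 to 262 CPM (0.29, SE 0.15, and 0.19 without NeMO replicate 4). Arhgef17 stood at 0.23 (SE 0.12) with 0.37 in batch 1, −0.00 in batch 2 and 0.13 with the offsets, and the kinase gene Nuak2 at 0.17 (SE 0.19), with 0.052 without NeMO replicate 3.

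**Figure D3:**
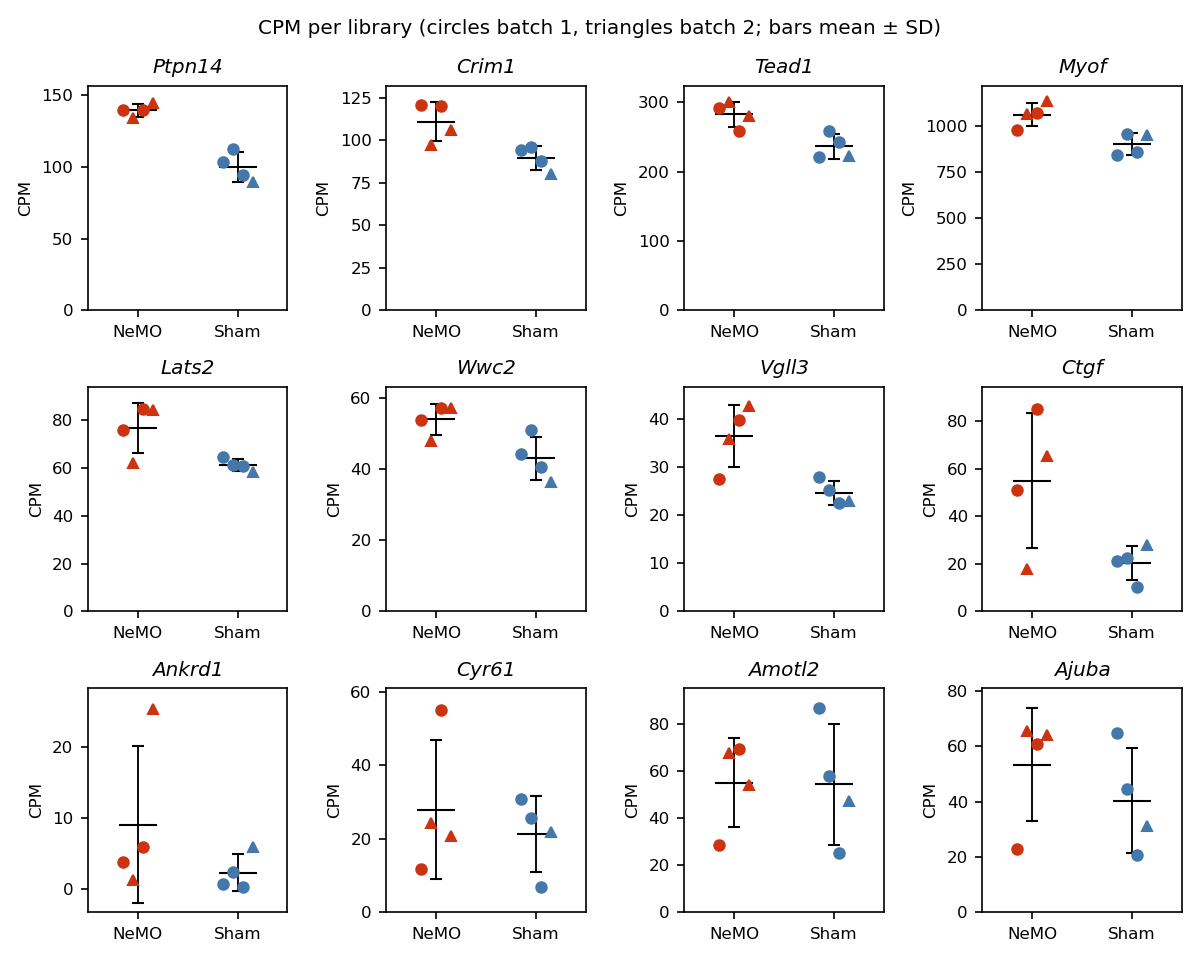
CPM (y axis, linear) of 12 members in the 4 NeMO libraries (red, left) and the 4 Sham libraries (blue, right), circles for batch 1 and triangles for batch 2, with mean ± SD; the SD bars of Ankrd1 reach below 0. Groups do not overlap for Ptpn14, Crim1, Tead1 and Myof, while Cyr61, Amotl2 and Ajuba spread as widely within groups as between them.

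Ajuba, Amotl2 and Cyr61 varied between libraries far more than most members, in both groups. Their highest libraries differed: NeMO replicate 2 for Ajuba, Sham replicate 1 for Amotl2 and NeMO replicate 3 for Cyr61. Ajuba, a LIM protein that binds LATS, measured 22.8, 65.4, 60.9 and 64.0 CPM in NeMO and 64.8, 44.4, 20.8 and 31.2 CPM in Sham. Amotl2, an angiomotin that is also a YAP target, measured 28.6, 67.8, 69.2 and 54.2 CPM in NeMO and 86.7, 58.0, 25.02 and 47.4 CPM in Sham. The lowest libraries of all 3 genes were Sham replicate 3 and NeMO replicate 1. Sham replicate 3 was also the lowest library for Ctgf (10.4 CPM) and Ankrd1 (0.27 CPM). In NeMO replicate 1, however, these genes were not low: Ctgf (50.9 CPM) lay above all Sham libraries and Ankrd1 (3.84 CPM) within their range. The SD of log2 CPM within groups was 0.72 for Ajuba, 0.67 for Amotl2 and 0.94 for Cyr61, above that of 92.6%, 91.2% and 97.0% of all genes tested, and their log2 fold changes of 0.32 (SE 0.50), −0.01 (SE 0.47) and 0.44 carry wide errors. In the batches alone Ajuba stood at −0.05 (batch 1) and 1.062 (batch 2), and Amotl2 at −0.21 (batch 1) and 0.37 (batch 2). The summed level of 8 immediate early genes, listed after these values were seen, was 374 CPM in NeMO replicate 1 and 222 in Sham replicate 3, against 189 to 230.4 in the other NeMO libraries and 273 to 488 in the other Sham libraries. NeMO replicate 1 thus had the highest of the NeMO sums and Sham replicate 3 the lowest of the Sham sums, and the part of these genes in the pattern was not tested. These 3 genes were singled out after their values were seen.

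**Figure D4:**
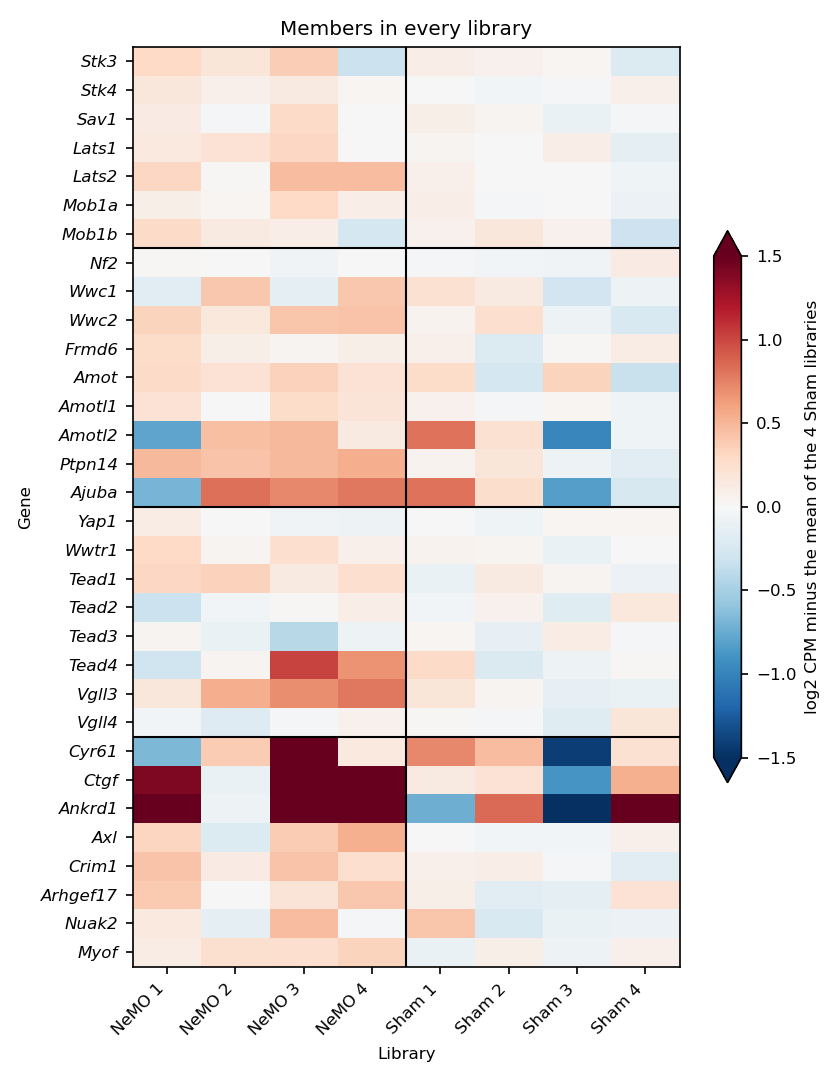
Each of the 32 members (rows, by role) in each library (columns, NeMO left of Sham), as log2 CPM minus the mean of the 4 Sham libraries on a colour scale clipped at both ends. NeMO replicate 3 lies above all Sham libraries for 21 members and NeMO replicate 2 for 9, and Ajuba, Amotl2 and Cyr61 are low in NeMO replicate 1 and Sham replicate 3.

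Counted by library, NeMO replicates 1 to 4 lay above every Sham library for 18, 9, 21 and 16 of the 32 members and below every Sham library for 2 members each. Over all genes tested the same shares ran from 22.1% to 26.3% above and from 23.5% to 28.1% below. On the targets NeMO replicate 2 was the NeMO library nearest to Sham. Its median deviation from the Sham mean over the 8 targets was −0.05, against 0.36, 0.44 and 0.36 in NeMO replicates 1, 3 and 4 and −0.12 to 0.15 in Sham.

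Transcript length moved with the fold changes. Over 8 bins of the longest annotated transcript, the median log2 fold change of all genes was −0.16 in the shortest and 0.16 in the longest. The components have long transcripts (median 4708.5 nucleotides, targets 3686, all genes 3211). The longest bin held 10 members, 6 of them higher at an unadjusted p under 0.05, where 30.8% of all its genes were, and the next bin held 7, of which 3 were, where 16.6% were. Of all genes only 2.97% were lower in the longest bin and 4.6% in the next. With offsets for length and GC content in the same edgeR fit, the component median was 0.09 and 4 components (Ptpn14, Lats2, Wwc2 and Vgll3) were higher at an unadjusted p under 0.05, against 7.28% of all genes. Ptpn14 then stood at 0.38 and Crim1 at 0.28 (edgeR adjusted p = 0.145 and 0.160). The target median was 0.29, with 3 targets (Ctgf, Axl and Crim1) higher at an unadjusted p under 0.05, and the short transcripts of Ctgf and Ankrd1 stood at 1.495 and 1.81. What part length or RNA quality has in the members' fold changes was not tested further.

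**Figure D5:**
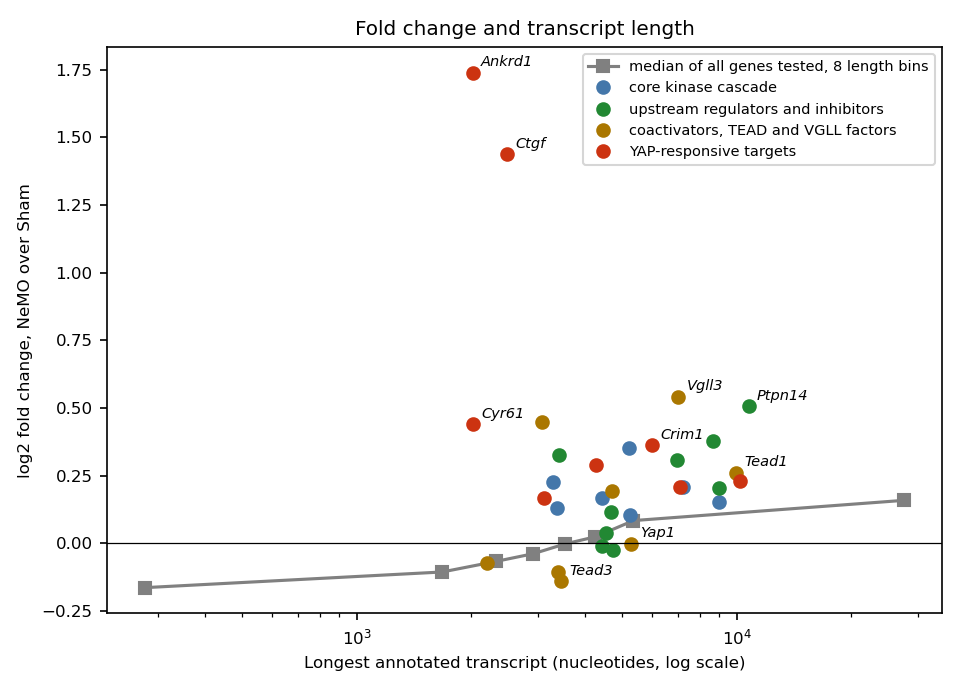
The log2 fold change of NeMO over Sham (y axis) against the length of the longest annotated transcript in nucleotides (x axis, log scale) for the 32 members, coloured by role, with the median of all genes in 8 length bins as grey squares joined by a line. Ctgf and Ankrd1 lie far above the line, Ptpn14 and Vgll3 above it among long transcripts, and Yap1 and Tead3 below it.

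Other genes of the pathway and its targets were read from lists chosen with earlier results of these data known. Among the other 11 genes of the published YAP/TAZ target signature the median log2 fold change was 0.23, with 8 positive, and 0 passed in edgeR, where 4 had an unadjusted p under 0.05 with a higher level in NeMO and 1 with a lower one, against 9.38% and 9.14% of all genes. The exchange factor gene Dock5 averaged 69.5 ± 1.68 CPM in NeMO and 53.5 ± 3.23 CPM in Sham (SD, n = 4 each), a log2 fold change of 0.39 (SE 0.07, edgeR adjusted p = 0.0691). It was followed by the growth factor gene Tgfb2 (0.62, SE 0.12, 0.0786), the tissue factor gene F3 (0.45, SE 0.09, 0.0850) and Asap1 (0.25, SE 0.07, 0.131). Igfbp3, an IGF-binding protein gene, stood at −0.60 (SE 0.20). Of 13 genes for FAT and Dachsous protocadherins, polarity and junction proteins 11 were positive (median 0.13) and 0 passed, with 5 higher at an unadjusted p under 0.05, against 9.38% of all genes. The median transcript of this list is 6143 nucleotides, and 16.6% to 30.8% of all genes in the 2 longest bins were higher. The atypical cadherin gene Fat4, a relative of the fly Hippo pathway receptor Fat, averaged 56.9 ± 11.3 CPM in NeMO and 38.3 ± 3.56 CPM in Sham (SD, n = 4 each), a log2 fold change of 0.64 (SE 0.10, edgeR adjusted p = 0.0602). Next were Fat1 (0.45, SE 0.09, 0.0786), the tight junction gene Tjp1 (0.35, SE 0.09, 0.118) and the polarity gene Mpp5 (0.24, SE 0.07, 0.144).

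The kinases upstream of LATS, 10 genes of the MAP4K and TAO families, had a median of 0.12 with 8 positive and 0 past the threshold. At an unadjusted p under 0.05, 3 were higher, against 9.38% of all genes and 16.6% in the length bin of the list's median of 4989.5 nucleotides: Map4k5 (0.32, SE 0.06, edgeR adjusted p = 0.0786), Map4k4 (0.30, SE 0.10, 0.176) and Taok1 (0.22, SE 0.09, 0.260). The STRIPAK phosphatase complex, which inactivates the MST kinases, had a median of 0.04 over 11 genes, 0 past the threshold. At an unadjusted p under 0.05, 3 were higher and 2 lower, against 9.38% and 9.14% of all genes. They were Sike1 (0.24, SE 0.08), Strn (0.21, SE 0.08), Strn3 (0.21, SE 0.08), Ppp2r1a (−0.19, SE 0.07) and Strip2 (−0.83, SE 0.36), the last with 34 to 123 counts per library and named after its value was seen. For the remaining LIM, RASSF, VGLL and degradation genes the median was 0.06 over 10 tested of 11, with Rassf1 (0.26, SE 0.11) the only gene at an unadjusted p under 0.05, against 9.38% of all genes higher. Vgll2 had no count in any library. Dchs2 was not analysed here. DESeq2 called 9 of the 55 genes of these lists with an adjusted p, where 3.6% of all genes were called higher and 2.72% lower: Fat4, Fat1, Dock5, Map4k5, Tgfb2, F3, Tjp1 and Asap1 as higher and Igfbp3 as lower.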

How the data were processed

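Libraries of polyA RNA from mouse bladder came from a directional kit and were read from a single end, per the labels' protocols. Each deposited file holds raw counts of reads for 1 library by gene symbol. Trimmomatic, STAR, featureCounts, DESeq2 and the mm10 build are named in the submitters' processing notes. Neither the annotation nor the strand setting is given in the sources used here, so antisense genes that overlap a member cannot be separated from it.

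The deposited counts were analysed with edgeR 4.0.16 (R 4.3.3), using filterByExpr on the group (minimum count 10, minimum total 15), TMM scaling and the robust quasi-likelihood F-test, two-sided, with terms for batch and group. P-values were Benjamini-Hochberg adjusted over 16370 genes, with a threshold of 0.05. The SE of a log2 fold change is its size over the root of F. CPM use TMM-scaled library sizes. Paralog ratios used exact permutation tests. Alternatives were DESeq2 1.42.0, other scalings, no filter, no batch term, batches alone, 1 library left out, replicate blocks, length and GC offsets (splines with 4 degrees of freedom) and a move of 3 members between the lists. Lengths and positions come from GENCODE M21 on GRCm38, the assembly of mm10, with a length for 98.9% of genes tested.

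Values were given in every library for Yap1, Wwtr1, Tead1, Lats1, Lats2, Cyr61, Ctgf, Ankrd1 and each member at an unadjusted p under 0.05, and up to 4 genes were named per other list; Ajuba, Amotl2, Myof, Igfbp3 and Strip2 were added after their values were seen. The members and lists were chosen with earlier results of these data known. Every pair of libraries within a group differed by more than sampling noise (chi-square per degree of freedom 20.5 to 112).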

Additional observations from a re-analysis of the deposited data

Results flagged for a closer look

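Of 80 sets of 4 libraries examined (32 members and 8 paralog ratios in each group), 4 held a library whose gap to its nearest neighbour took more of the group's range than Dixon's 95% critical value of 0.829 allows; chance flags about 1 set in 20. Ajuba was low in NeMO replicate 1 (0.894 of the range), and the log2 ratio of Vgll3 to Vgll4 was low in the same library (0.991). In Sham replicate 4, Nf2 was high (0.913, at 152 CPM against 135 to 136 in the other Sham libraries) and the log2 ratio of Stk3 to Stk4 was low (0.862). Sham replicate 4 is the only Sham library of batch 2, so the library and the batch cannot be told apart there.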

How the results depend on the processing

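Counts of calls moved most. Past the adjusted threshold the reported counts are 0. DESeq2 gave 4 components and 1 target, and of the other pathway and signature genes 8 higher and 1 lower. In DESeq2 3.6% of all genes were called higher and 2.72% lower. With no filter on low counts edgeR gave 1 component, 1 target and 5 other genes, where 0.464% of all genes were called higher. At an unadjusted p under 0.05, in place of 8 components there were 5 with no batch term, 5 in batch 2 alone and 4 with length and GC offsets, where 7.13%, 5.38% and 7.28% of all genes were higher, against 9.38% as reported. The offsets put the component median at 0.093. In place of 2 such targets there were 5 in batch 1 alone (5.93% of all genes), 0 in batch 2 alone, and 4 with Lats2, Amotl2 and Ptpn14 counted as targets. Leaving out 1 library at a time gave 0 to 2 components, 0 to 1 target and 0 to 5 other genes past the adjusted threshold. Over all genes these fits called 0 to 323 higher and 0 to 329 lower, the most without NeMO replicate 1 (1.94% higher). At an unadjusted p under 0.05 they gave 5 to 9 components higher, 0 to 1 lower and 1 to 6 targets higher. Of all genes 5.56% to 10.7% were then higher and 4.41% to 10.9% lower. The cause was not tested.

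Signs turned for log2 fold changes near 0 or with wide errors. In batch 1 alone Nf2 stood at 0.026, Wwc1 at −0.20, Ajuba at −0.047, Yap1 at 0.038 and Vgll4 at 0.022, and in batch 2 alone Stk4 at −0.019, Frmd6 at −0.018, Amotl2 at 0.37 and Arhgef17 at −0.00058. With length and GC offsets Mob1b stood at −0.017, Amotl2 at 0.015 and Vgll4 at 0.052. Yap1 stood at 0.00404 in DESeq2, 0.00401 with DESeq2 size factors and 0.00482 with no filter, and Amotl2 at 0.017 with no batch term. With 1 library left out, Nf2 ran from −0.056 to 0.025, Wwc1 from −0.20 to 0.13, Amotl2 from −0.34 to 0.33, Ajuba from −0.047 to 0.76, Yap1 from −0.053 to 0.037, Vgll4 from −0.12 to 0.021 and Cyr61 from −0.42 to 0.78. Of the members, 13 components and 6 targets were positive in all 18 alternatives. The alternatives reuse the same libraries, and the share of all genes that stayed positive throughout was not computed.

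The replicate numbers are not known to pair libraries: deviations of same-numbered NeMO and Sham libraries from their group means correlated at −0.01, 0.08, 0.04 and 0.32. With batch also taken out the correlations were −0.22, 0.17, −0.20 and −0.17. With a replicate block beside batch 5 targets were higher at an unadjusted p under 0.05 (7.21% of all genes) and Amotl2 stood at 0.030. With a replicate block in place of batch Amotl2 stood at 0.085, and 0 genes of all tested passed the adjusted threshold.

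Limits are set by 4 libraries a group, with a single Sham library in batch 2, which is assumed there to vary like the NeMO libraries, so leaving it out repeats batch 1. Tead4 and Ankrd1 rest on as few as 40 and 9 reads in a library.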
